A study of Mus musculus with 8 samples.

Results

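The genes described here are 36 genes of the endothelial lineage, the cells that line blood vessels, lymphatic vessels and the heart chambers. They are 36 of the 21887 protein-coding genes in the RefSeq table used. CHD4 sites were obtained by merging the peaks of 4 ChIP-seq libraries wherever they overlapped by at least 1 bp, which gave 121267 sites. A site was given to a gene when it overlapped the gene body plus 10 kb on each side. By this rule the 36 genes held 563 of the 96605 sites at protein-coding genes, and each of them held at least 1. The genes were listed by lineage and not by their CHD4 values, though the list was made with earlier results of these data known. They are meant as a reference for cells other than cardiomyocytes in mixed atrial tissue.

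The study mapped CHD4 by ChIP-seq in dissected, frozen mouse atria, with 2 control and 2 TBX5 KO libraries by title and 1 peak list for each. The mice were all Tbx5 flox/flox and were given an AAV9 vector at postnatal day 2. The vector held Cre recombinase in one group (AAV9:Nppa-Cre) and EGFP in the other (AAV9:Nppa-EGFP), each driven by Nppa sequence, and Nppa is a gene of atrial cardiomyocytes. Endothelial cells are therefore not the cell type in which the vector is meant to act. The tissue label is Right/Left atria and the cell type label is Mixed. Nothing says that the 2 libraries of a group came from separate animals, so p-values measure only the spread between these libraries.

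The sample titles define the groups used here. The labels for genotype and treatment assign the same libraries to the opposite groups, and the treatment text names CHD4 in place of TBX5 as the deleted gene. Every direction below rests on the titles and turns round if the other labels are right. The control lists held 99924 and 91520 peaks and the TBX5 KO lists 61173 and 69557. The lists give no read totals, so sequencing depth is unknown, and CHD4 binding too weak for a call does not appear in them. Peak lists do not measure expression, so the share of endothelial cells in each sample could not be checked. In such tissue, fewer endothelial cells, less CHD4 per endothelial cell and different CHD4 binding in other cells, cardiomyocytes included, cannot be told apart.

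CHD4 is the ATP-dependent remodelling enzyme of the NuRD complex, which also removes histone acetylation and is found at active enhancers and promoters as well as at silenced genes. Endothelial identity is set by ETS factors such as ERG and FLI1 together with SOXF factors, GATA factors and bHLH factors. Endothelial cells sense VEGF through receptor tyrosine kinases, angiopoietins through the TIE receptors, and their neighbours through Notch. NRP1 and PROX1 are also made by cardiomyocytes, so their sites need not come from endothelial cells. Sites of the other genes cannot be assigned to a cell type either, since the tissue is mixed.

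Promoter windows of these genes were checked for CHD4 sites, and 8 of them are printed here. Of the endothelial sites called in both control libraries, 7.62% lay at promoter windows of any gene, against 17.8% over all protein-coding genes. This share depends on the number of sites per gene, which had a median of 8 for the members against 3. A window runs from 250 bases before to 50 bases after a RefSeq transcription start (assembly GRCm38.p6, the assembly behind mm10). Windows were at hand for 19 of the 36 genes, 25 windows in all. Each is written 5′ to 3′ on the strand of its gene. Capitals mark a match, on either strand, to 1 of 5 short patterns, the core letters of ETS, SOX, GATA, T-box and E-box sites, which are spelled out with their counts after the sequences. No pattern contains another. The 4 genes whose window lay in a site called in all 4 libraries with the highest control rank come first, and 2 genes whose window held no site follow. The windows of Erg and Lyl1 were added after their matches were seen.
Nrp1, chr8:128358823-128359122, plus strand: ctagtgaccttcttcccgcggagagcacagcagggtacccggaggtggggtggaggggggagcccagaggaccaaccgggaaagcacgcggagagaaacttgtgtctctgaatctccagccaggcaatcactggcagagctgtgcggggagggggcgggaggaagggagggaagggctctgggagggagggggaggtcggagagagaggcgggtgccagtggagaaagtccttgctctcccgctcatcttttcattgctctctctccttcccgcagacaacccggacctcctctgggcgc
Eng, chr2:32646345-32646644, plus strand: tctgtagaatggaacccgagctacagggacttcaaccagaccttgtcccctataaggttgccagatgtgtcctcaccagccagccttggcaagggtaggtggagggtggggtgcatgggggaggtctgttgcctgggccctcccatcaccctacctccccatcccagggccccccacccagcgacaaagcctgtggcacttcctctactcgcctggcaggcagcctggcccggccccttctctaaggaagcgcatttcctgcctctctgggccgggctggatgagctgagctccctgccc
Notch1, chr2:26503773-26504072, minus strand: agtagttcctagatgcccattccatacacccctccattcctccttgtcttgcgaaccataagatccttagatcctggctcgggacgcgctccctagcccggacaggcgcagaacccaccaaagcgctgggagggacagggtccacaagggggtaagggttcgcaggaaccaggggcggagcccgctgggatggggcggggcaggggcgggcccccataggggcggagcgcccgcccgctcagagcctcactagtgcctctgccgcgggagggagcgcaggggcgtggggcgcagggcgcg
Egfl7, chr2:26580833-26581132, plus strand: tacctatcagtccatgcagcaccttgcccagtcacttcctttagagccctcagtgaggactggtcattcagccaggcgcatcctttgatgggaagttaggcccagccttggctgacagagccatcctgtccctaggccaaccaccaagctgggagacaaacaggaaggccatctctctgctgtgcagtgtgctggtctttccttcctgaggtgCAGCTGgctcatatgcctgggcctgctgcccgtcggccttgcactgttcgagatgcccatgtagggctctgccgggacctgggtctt
Cldn5, chr16:18776597-18776896, plus strand, no site: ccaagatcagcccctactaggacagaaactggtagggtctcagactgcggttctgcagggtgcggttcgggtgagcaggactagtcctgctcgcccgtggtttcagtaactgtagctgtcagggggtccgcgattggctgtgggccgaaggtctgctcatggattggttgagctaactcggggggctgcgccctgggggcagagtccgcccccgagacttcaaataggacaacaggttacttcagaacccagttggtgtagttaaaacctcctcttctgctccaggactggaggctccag
Flt4, chr11:49609429-49609728, plus strand, no site: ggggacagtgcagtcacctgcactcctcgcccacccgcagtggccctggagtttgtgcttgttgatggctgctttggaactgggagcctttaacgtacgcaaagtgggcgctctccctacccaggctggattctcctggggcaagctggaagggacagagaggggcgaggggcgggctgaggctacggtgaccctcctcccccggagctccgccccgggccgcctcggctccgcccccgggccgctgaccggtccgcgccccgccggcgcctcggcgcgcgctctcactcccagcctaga
Erg, chr16:95459299-95459598, minus strand: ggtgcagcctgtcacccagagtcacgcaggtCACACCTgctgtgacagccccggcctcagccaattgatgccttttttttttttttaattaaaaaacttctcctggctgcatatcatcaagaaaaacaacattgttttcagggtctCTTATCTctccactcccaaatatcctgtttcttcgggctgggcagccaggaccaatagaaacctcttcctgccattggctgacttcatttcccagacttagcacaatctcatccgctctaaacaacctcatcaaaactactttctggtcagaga
Lyl1, chr8:84701207-84701506, plus strand: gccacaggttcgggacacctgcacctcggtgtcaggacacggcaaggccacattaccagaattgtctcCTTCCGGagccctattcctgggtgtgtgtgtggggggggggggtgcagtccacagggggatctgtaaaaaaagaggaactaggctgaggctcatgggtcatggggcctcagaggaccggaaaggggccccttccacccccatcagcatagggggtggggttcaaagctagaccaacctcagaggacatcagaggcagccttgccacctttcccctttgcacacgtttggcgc

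The promoters of these genes were mostly called in every library. Of the 25 windows, 19 (76%) lay in a site called in all 4 libraries, against 53.7% of the 21263 windows of all genes. None lay in a control-only site, which is a site called in both control libraries and in neither TBX5 KO library. Only 1.01% of the windows of all genes did, so finding none among 25 does not set these genes apart. By gene, 16 of the 19 had at least 1 window in a site called in all 4. The exceptions were Cldn5, Flt4 and Emcn, and the windows of Cldn5 and Flt4 held no site. The windows in sites called in all 4 were nearly as rich in G and C as those of all genes (median 60% against 62%) but poorer in CpG. Their median ratio of observed to expected CpG was 0.474, against 0.785 for windows of all genes in such sites.

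The 5 patterns were rare in the windows. The ETS letters CCGGAAG were present in 1 of the 25 windows (Lyl1, 4%), against 11.6% of all windows. The GATA letters AGATAAG were present in 2 windows (Erg and Tek, 8%), against 2.64%. The T-box letters AGGTGTG were present in 1 window (Erg, 4%), against 5.32%. The E-box letters CAGCTG, which read the same on both strands, were also present in 1 (Egfl7, 4%), against 15.6%. No window held the SOX letters ACAATGG, against 2.92% of all windows. The matches describe these 300-base windows only.

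The strongest promoter site was that of Nrp1, which encodes a co-receptor for VEGF and semaphorins. It lay at chr8:128355795-128363785. Its peaks covered 6785 and 6504 bp in control 1 and 2 and 5089 and 6834 bp in TBX5 KO 1 and 2. Its rank among the sites called in all 4 libraries was at the 94.5 and 97.4 percentile in control and at the 92.3 and 94.9 percentile in TBX5 KO, so both groups placed it near the top of their lists. The promoter site of Notch1, the receptor that holds vessels in arterial and quiescent states, ranked at 81.9 and 90.5 in control and at 89.2 and 84.7 in TBX5 KO. The promoter site of Kdr, the main signalling VEGF receptor, ranked at 65.1 and 57.9 in control and at 72.03 and 70.0 in TBX5 KO, and thus lay higher in both TBX5 KO libraries. For Eng, which encodes the TGF-beta co-receptor endoglin, the ranks were 85.5 and 89.5 in control against 78.5 and 81.8 in TBX5 KO, lower in both TBX5 KO libraries. Rank here is the order of the authors' −log10 p within 1 list, restricted to the 38043 sites called in all 4 libraries, so that lists of unequal length can be set side by side.

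Most endothelial sites found in control atria were found in TBX5 KO atria as well. Of the 563 sites, 328 were called in both control libraries, and of those 200 (60.98%) were called in all 4 libraries, 68 in 1 TBX5 KO library and 60 (18.3%, 95% Wilson interval 14.5 to 22.8%) in neither. Over all protein-coding genes the same shares were 57.2% in all 4 and 24.3% control-only. The 36 atrial cardiomyocyte genes set beside them held 590 sites in both control libraries, and 306 (51.9%) of these were control-only. The fibroblast list gave 27 of 152 (17.8%) and the smooth muscle and mural list 39 of 150 (26.0%). Ryr2 is 1 of the 36 cardiomyocyte genes. Leaving it out lowered the log2 difference in the ratio of endothelial to cardiomyocyte peaks, described below, from 0.56 to 0.32. Site shares, widths and ranks of the cardiomyocyte list were not computed without Ryr2. Wilson intervals cover counting error only, and neighbouring sites of 1 gene are not independent. Sites seen in only 1 library numbered 192.

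The reverse pattern was rare. Of 210 endothelial sites called in both TBX5 KO libraries, 3 (1.43%) were called in neither control library, against 1.74% over all protein-coding genes. They lay within Tek (chr4:94754625-94755039), Nrp1 (chr8:128441286-128441718) and Erg (chr16:95585500-95585905). All 3 were narrow, and those of Tek and Erg stood low in both lists. The Tek site was 282 and 355 bp wide and stood at the 9.4 and 2.8 percentile of the TBX5 KO lists, and the Erg site was 240 and 384 bp wide, at the 12.6 and 24.7 percentile. The Nrp1 site was 252 and 433 bp wide, at the 22.2 and 56.3 percentile, above the middle of the TBX5 KO 2 list. With lists of equal length, 15 of 203 endothelial sites (7.39%) were TBX5 KO-only, above the 5.61% over all genes, so the order of the 2 shares depends on list length.

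The calls differed by place in the gene. At promoter windows of any gene, 0 of 25 endothelial sites in both control libraries were control-only (Wilson interval up to 13.3%), and 24 of the 25 were called in all 4. Over all genes 2.14% of promoter sites were control-only. Within gene bodies 52 of 258 endothelial sites (20.2%) were control-only, against 29.7% over all genes. In the 10 kb flanks the count was 8 of 45 (17.8%), against 25.1%. Among atrial cardiomyocyte genes 3 of 38 promoter sites and 276 of 501 gene-body sites (55.1%) were control-only.

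The control-only endothelial sites stood lower in the control lists than those called in all 4, with overlap. Their control rank, the mean percentile of −log10 p in the 2 control lists, ran from 3.54 to 67.4 with a median of 32.7. That of the sites called in all 4 ran from 14.0 to 99.7 with a median of 80.2. Median widths of the control-only sites were 578 and 565.5 bp in the control libraries, against 1527.5 and 1429 bp for the sites called in all 4. All sites in both control libraries were split into 5 classes of control rank. In the lowest class 33 of 70 endothelial sites (47.1%) were control-only, followed by 19 of 61 (31.1%) and 8 of 46 (17.4%). In the 2 highest classes, 0 of 87 and 0 of 64 were control-only, with Wilson upper bounds of 4.23% and 5.66%. The same classes gave 58.5%, 36.4%, 19.9%, 6.45% and 0.897% over all genes, and 19 of 107 and 13 of 86 in the 2 highest classes of the atrial cardiomyocyte genes. From the control rank of its sites, the endothelial list would hold 77.4 control-only sites at the rate of all genes (23.6%), and from rank and place together 79.3 (24.2%), beside the 60 found.

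**Figure D1:**
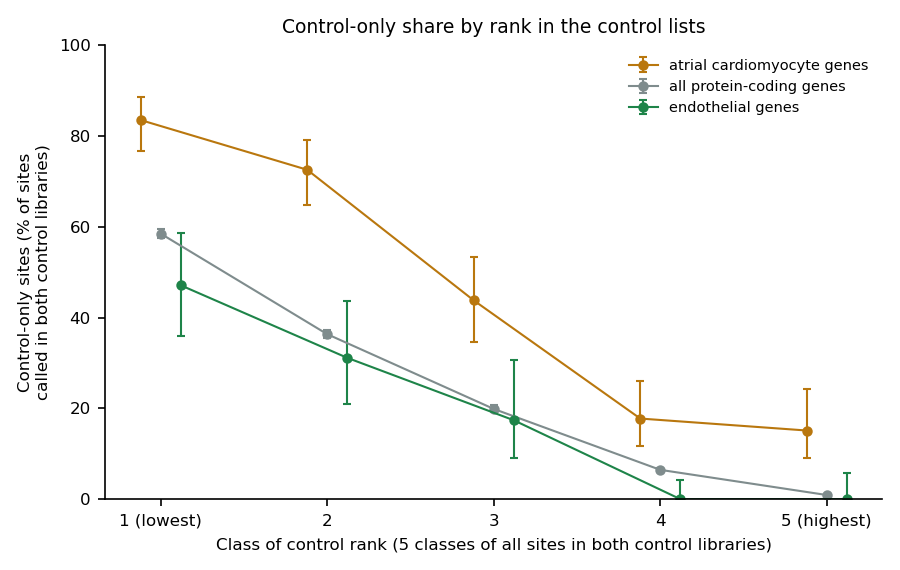
Share of control-only sites among sites called in both control libraries (y axis, %) by class of control rank (x axis, 5 classes from lowest to highest), with 95% Wilson intervals that cover counting error only. The endothelial share runs from 47.1% in the lowest class to 0 in the 2 highest, under the share of all genes in each class, and the atrial cardiomyocyte share is above both in every class.

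The unequal list lengths bear on these counts. With every list shortened to its 61173 strongest peaks, 22 of 228 endothelial sites (9.65%) were control-only, against 13.5% over all genes. The atrial cardiomyocyte genes then gave 135 of 365 (37.0%), and 3 of their 177 sites in both TBX5 KO libraries (1.69%) were TBX5 KO-only. Leaving out 1 library at a time relaxes what control-only means and gave 26.8 to 33.1% for the endothelial sites, beside 30.3 to 40.2% over all genes. In each of these settings the endothelial control-only share was under that of all genes.

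By gene, 34 of the 36 had a site in both control libraries, and Cldn5 and Sox17 had none. All 34 had a site called in all 4 libraries, against 93.4% of the 15392 protein-coding genes with such a control site. A control-only site was present in 26 of the 34 (76.5%), against 45.4%. The members also held more sites, with a median of 8 per gene in both control libraries against 3, so a site of either kind was more likely to be found. Sites called in all 4 outnumbered control-only sites in 29 of the 34 genes (85.3%), against 77.2%, and equalled them in 5.

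**Figure D2:**
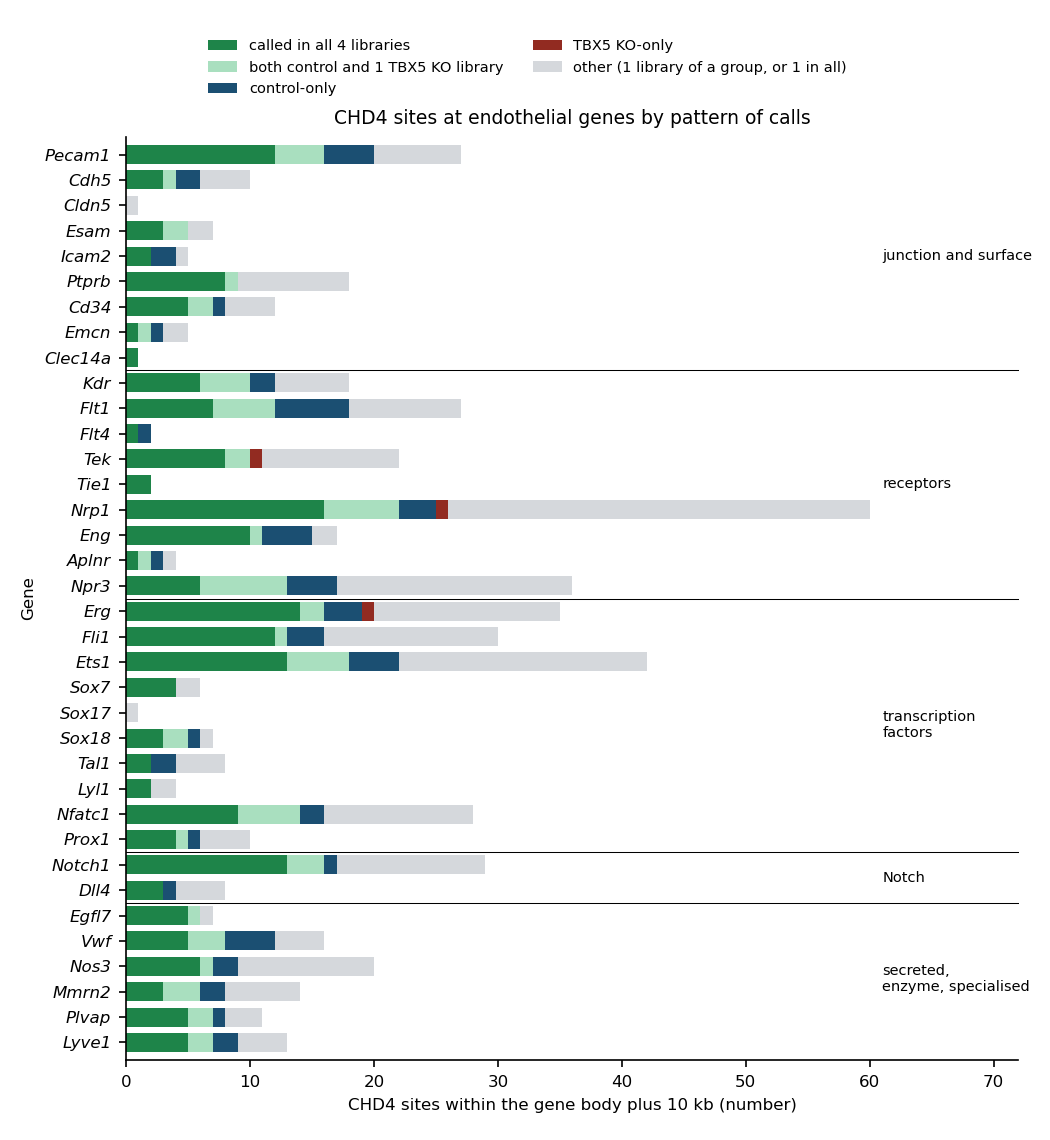
Number of CHD4 sites per gene (x axis) for the 36 endothelial genes (y axis, grouped by role), split by the libraries that called them. Sites called in all 4 libraries outnumber control-only sites in 29 genes, Flt1 holds 6 control-only sites, and Tek, Nrp1 and Erg hold 1 TBX5 KO-only site each.

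Among the 9 junction and surface genes, 10 of 56 sites in both control libraries (17.9%) were control-only and 35 were called in all 4. Pecam1, which encodes the junction molecule CD31, held 27 sites, of which 12 were called in all 4 and 4 were control-only. Its peaks covered 53.1 and 44.8 kb in control and 28.5 and 32.7 kb in TBX5 KO, while their number was 29 and 27 against 25 and 24. Cdh5, the gene of VE-cadherin, held 3 sites called in all 4 and 2 control-only sites. Ptprb encodes the vascular phosphatase that restrains TIE2, and its 8 sites called in all 4 stood beside no control-only site. That count was 5 of 16 without control 2 and 2 of 7 with −log10 q of at least 5. Its peaks covered 12.0 and 7.69 kb in control and 6.56 and 7.20 kb in TBX5 KO. Esam, an adhesion molecule of endothelial junctions, and Clec14a, a surface lectin, also had no control-only site. Icam2, Emcn and Cd34, which encode surface glycoproteins, had 2, 1 and 1.

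Cldn5 encodes the tight-junction protein claudin-5 and had almost no CHD4 call. Its 1 site, at chr16:18775871-18776271 in the flank and also within reach of Cdc45, was called in control 2 (318 bp) and TBX5 KO 2 (240 bp) alone. Both peaks were weak, at the 21.9 and 4.49 percentile of their lists.

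The 9 receptor genes held 104 sites in both control libraries, of which 21 (20.2%) were control-only. Flt1 encodes the VEGF receptor that also acts as a decoy, and 6 of its 18 sites were control-only, the highest number among the 36 genes in this setting. The number was 2 of 14 with lists of equal length and 9 to 11 without control 1, control 2 or TBX5 KO 2. Not every member was run in the other settings, and several that were had more than Flt1. Npr3 had 12 without control 1, 12 without control 2, and 5 against 4 with −log10 q of at least 3. Nrp1 had 11 without control 1, and Ets1 and Erg had 11 each without control 2. Ets1 had 12 with sites given to the nearest gene and Pecam1 11 with 50 kb flanks, so the order of the genes is not fixed. The 6 control-only sites of Flt1 were spread through the gene body. The strongest, at chr5:147680847-147681829, was 961 and 758 bp wide and stood at the 64.6 and 70.1 percentile of the control lists. Flt1 carried 23 and 21 peaks in control and 9 and 14 in TBX5 KO, covering 19.0 and 16.2 kb against 6.12 and 9.81 kb. Of its 7 sites called in all 4, 6 ranked lower in both TBX5 KO libraries, and its median rank difference was −16.0 percentile points. Kdr gave 2 control-only sites of 12 and covered 15.1 and 13.7 kb in control against 3.95 and 6.94 kb in TBX5 KO. Flt4, the receptor of lymphatic endothelium, held only 2 sites, 1 of them control-only.

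Tek encodes TIE2, the angiopoietin receptor. It had no control-only site among 10, had 8 sites called in all 4, and had 1 of the TBX5 KO-only sites. The count of 0 depends on the setting: it was 4 of 15 without control 1, 5 of 15 without control 2, and 2 of 8 with −log10 q of at least 5. Its 15 and 15 control peaks stood beside 10 and 12 in TBX5 KO and covered 14.5 and 13.1 kb against 7.23 and 10.1 kb. Tie1, its partner receptor, had 2 sites, both called in all 4. Nrp1 held the most sites of any member, 60, with 16 called in all 4 and 3 control-only. It had 41 and 43 peaks in control and 43 and 42 in TBX5 KO, so peak numbers overlapped between groups, while the covered length did not (46.5 and 42.6 kb against 29.7 and 34.9 kb).

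Eng had 10 sites called in all 4 and 4 control-only sites, and 10 of its 17 sites also lay within reach of a gene outside the list. Peaks touching its region, each counted at full length, covered 57.2 and 53.2 kb in control and 22.9 and 28.0 kb in TBX5 KO. A long site at the edge of the region, described below, adds its control peaks in full. Its TBX5 KO pieces outside the region are not counted, so the difference at Eng is partly made by this rule. Npr3 encodes the clearance receptor for natriuretic peptides, made by the endocardium. It gave 4 control-only sites of 17, with 28 and 30 peaks in control against 13 and 16 in TBX5 KO, covering 28.1 and 29.7 kb against 12.0 and 12.4 kb. Aplnr, the apelin receptor, had 1 control-only site and 1 site called in all 4.

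The 10 transcription factor genes gave 16 control-only sites of 95 (16.8%) and 63 sites called in all 4. The ETS factor genes held most of them. Ets1 had 13 sites called in all 4 and 4 control-only, and its peaks covered 30.7 and 25.8 kb in control against 15.2 and 18.4 kb in TBX5 KO. Erg had 14 and 3, covering 24.4 and 20.9 kb against 11.8 and 12.8 kb, and Fli1 had 12 and 3. An Ets1 site within the gene, at chr9:32694003-32697346, was among the strongest of all members. It ranked at the 99.4 and 97.1 percentile in control and at the 99.4 and 98.8 percentile in TBX5 KO, with widths of 3197 and 3214 bp against 2379 and 3020 bp. The Erg window printed above lay in a site of 1913 and 2166 bp in control and 1589 and 800 bp in TBX5 KO.

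The SOXF genes differed in how much CHD4 they carried. Sox7 had 4 sites in both control libraries, and all 4 were called in every library, covering 4.35 and 3.95 kb in control and 3.20 and 2.99 kb in TBX5 KO. Sox18 had 3 sites called in all 4 and 1 control-only site, and all of its sites lay within reach of other genes. The same was true of all sites of Cldn5, Plvap, Esam, Icam2, Lyl1 and Flt4. It held for 12 of 14 sites at Mmrn2, 11 of 13 at Lyve1 and 11 of 20 at Nos3. Sox17 had 1 site, called in control 1 alone at chr1:4493613-4493985 with a width of 373 bp, at the 58.0 percentile of that list. Of the bHLH genes, Tal1 had 2 control-only sites of 4, and Lyl1 had 2 sites in both control libraries, both called in all 4. Nfatc1, the endocardial factor of valve formation, gave 2 of 16. Prox1, the master factor of lymphatic identity, gave 1 of 6, and its 4 sites called in all 4 had a median rank difference of −22.3 percentile points.

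The Notch genes gave 2 control-only sites of 21 (9.52%), 1 in Notch1 and 1 in the ligand gene Dll4. Notch1 had 13 sites called in all 4 and 25 and 25 control peaks against 23 and 22 in TBX5 KO, covering 45.4 and 36.1 kb against 21.2 and 24.0 kb. The secreted, enzyme and specialised genes gave 11 of 52 (21.2%). Vwf, the gene of the clotting factor carrier von Willebrand factor, had 4 of 12, and Nos3, the endothelial nitric oxide synthase, had 2 of 9. The matrix gene Mmrn2 and the hyaluronan receptor gene Lyve1 gave 2 each, and Plvap, which forms the diaphragms of capillary pores, gave 1. Egfl7, a secreted regulator of vessel assembly, had no control-only site. That count was 2 of 12 with sites given to the nearest gene and 2 of 20 with 50 kb flanks. The intervals of these 5 role groups overlapped one another.

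Length covered by peaks differed between the groups at almost every endothelial gene. It was lower in both TBX5 KO libraries than in either control library at 34 of the 34 genes with peaks in both control libraries, and the same held for 74.6% of the 15453 such genes overall. Genes of the same control length would give 30.0 of the 34. The count of members was 30 with lists of equal length, 30 with gene bodies only and 25 with only the sites of no other gene. It was 35 with sites given to the nearest gene and 36 with 50 kb flanks. The number of members with peaks in both control libraries can differ between these settings and is not given here. The median ratio of TBX5 KO to control length was 0.533 over the members, 0.642 over all genes and 0.577 over genes matched for control length. It was 0.245 over the atrial cardiomyocyte genes, where 35 of 36 were lower, 0.581 over fibroblast genes (21 of 22) and 0.483 over smooth muscle and mural genes (15 of 18). The endothelial ratios ran from 0.297 at Aplnr and 0.301 at Emcn to 0.819 at Fli1 and 0.855 at Lyl1. Of 34 further endothelial genes, 30 were lower, with a median ratio of 0.568. Of 20 VEGF, angiopoietin and Notch pathway genes, 16 were lower (0.645). In all of these lengths a peak touching the gene region was counted whole, also where it ran past the edge. A long control peak across an edge, as at Eng, thus counts in full while separate TBX5 KO pieces outside do not.

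**Figure D3:**
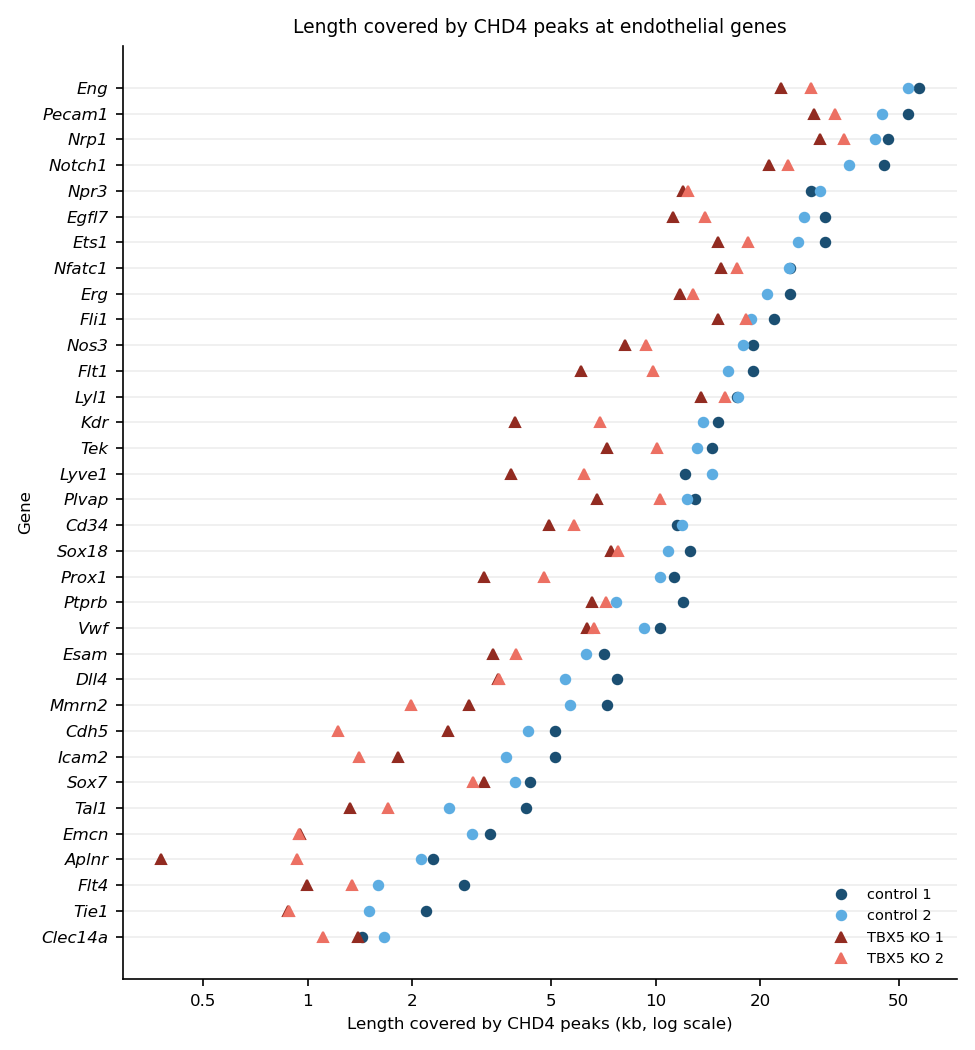
Length covered by CHD4 peaks (x axis, kb, log scale) in each of the 4 libraries for the 34 endothelial genes with peaks in both control libraries (y axis), ordered by their control mean. The triangles of TBX5 KO lie left of both control points in every row, far to the left at Aplnr and Emcn and close by at Lyl1, Fli1 and Clec14a.

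Summed over the 36 genes, the libraries held 475 and 466 peaks in control and 349 and 372 in TBX5 KO. Those peaks, each counted at full length even where it ran past a region's edge, covered 583 and 520 kb against 285 and 336 kb. Relative to the length of each list, however, endothelial genes held 47.5 and 50.9 peaks per 10000 in control and 57.1 and 53.5 in TBX5 KO, higher in both TBX5 KO libraries. The means were 49.2 ± 2.39 and 55.3 ± 2.52 (SD, n = 2 libraries each; exact two-sided permutation p = 0.333, the smallest that 2 against 2 libraries can give). Atrial cardiomyocyte genes differed the other way, with 94.6 and 101 per 10000 in control and 71.3 and 77.8 in TBX5 KO. For each cardiomyocyte-gene peak there were 0.503 and 0.506 endothelial-gene peaks in control and 0.800 and 0.688 in TBX5 KO. On the log2 scale this ratio was 0.56 higher in TBX5 KO (exact permutation p = 0.333, n = 2), or 1.47-fold. The same ratio was 1.54-fold higher for the further endothelial genes and 1.59-fold for the VEGF, angiopoietin and Notch pathway. It was 1.41-fold higher for fibroblast genes and 1.37-fold for smooth muscle and mural genes. All of these ratios have the cardiomyocyte peaks as denominator, so a higher ratio in every list is largely set by that denominator. Smooth muscle and mural genes themselves held 21.4 and 23.9 peaks per 10000 in control and 23.5 and 23.9 in TBX5 KO. Without Ryr2, the gene of the calcium release channel of muscle and 1 of the 36 cardiomyocyte genes, the endothelial difference was 0.32. The other lists were not run without Ryr2.

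**Figure D4:**
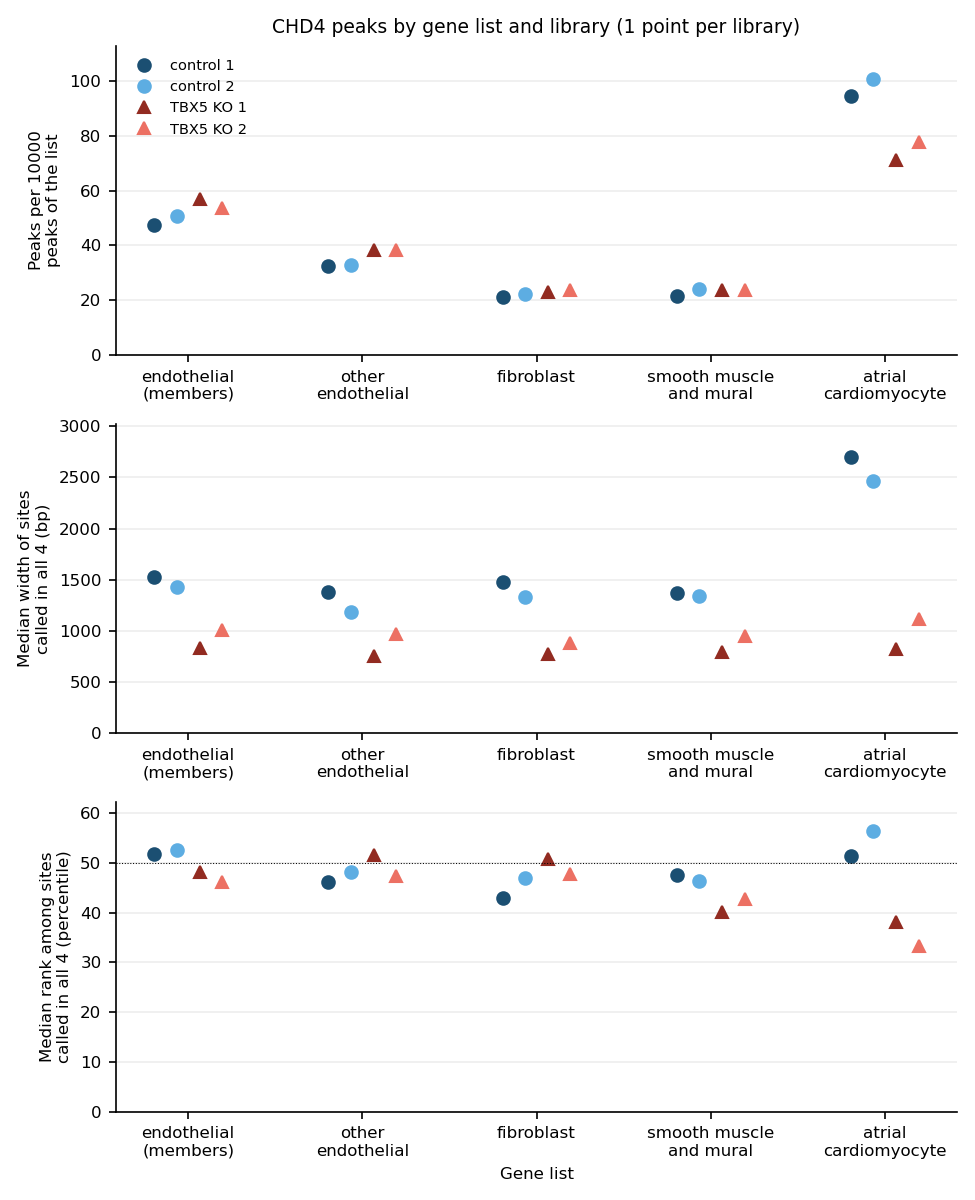
Values of 5 gene lists in the 4 libraries, with 1 point per library: peaks per 10000 peaks of the list (top), median width in bp of sites called in all 4 libraries (middle), and median percentile rank among the sites called in all 4 (bottom, dotted line at 50). The endothelial points of TBX5 KO lie above control in the top panel and below it in the others, and the atrial cardiomyocyte points lie below control in all 3 panels.

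Sites that were called in every library were narrower in TBX5 KO, where the width of a site is the length its peaks cover. The 200 endothelial sites called in all 4 libraries had median widths of 1527.5 and 1429 bp in control and 833.5 and 1007 bp in TBX5 KO, so the groups did not overlap. The TBX5 KO to control ratio was 0.620 on the log2 means (−0.69, exact permutation p = 0.333, n = 2). All sites called in all 4 had medians of 1257 and 1142 bp against 786 and 908 bp. Site by site, 128 of the 200 (64.0%) were narrower in both TBX5 KO libraries than in either control library, against 57.7% of such sites over all genes, and 8 (4%) were wider, against 3.06%. Sites of the same control width would give 59.8% narrower. Among the 184 such sites of atrial cardiomyocyte genes, 160 (87.0%) were narrower. In 18 endothelial sites (9%) the peak fell into more pieces in both TBX5 KO libraries, against 4.87% over all genes, 5.95% for sites of the same control width and 20.7% over the cardiomyocyte genes.

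The 4 genes with the widest control peak are described next. Since they were chosen for 1 long control peak, the greater number of pieces in TBX5 KO at their widest sites is partly fixed by that choice and supports nothing. At Egfl7 the site at chr2:26585111-26598920 was 1 and 2 peaks in control, covering 13666 and 13462 bp. In TBX5 KO it was 3 and 10 peaks covering 4874 and 7921 bp. Over the whole Egfl7 region the number of peaks was thus higher in TBX5 KO (13 and 17) than in control (10 and 7), while the covered length was lower (11.3 and 13.8 kb against 30.7 and 26.7 kb). A count of peaks and a covered length point in opposite directions at this gene. The site described runs past the end of Egfl7 at 26592682. Of the 7 sites of Egfl7, 5 also lay within reach of a gene outside the list, so the lengths cannot be given to Egfl7 alone. The widest Pecam1 site, at chr11:106671664-106685437, was 1 and 2 peaks in control and 7 and 3 in TBX5 KO, covering 13660 and 13367 bp against 10809 and 12226 bp.

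The widest site within reach of Eng, at chr2:32624049-32641135, lies upstream of Eng over the promoter of Ak1 and cannot be given to Eng alone. It was 1 and 2 peaks in control and 6 and 5 in TBX5 KO, covering 16997 and 16713 bp against 13629 and 14175 bp. The Lyl1 site at chr8:84696913-84710476 also reaches Trmt1, Nacc1 and Nfix. It was 3 and 3 peaks in control and 4 and 4 in TBX5 KO, covering 12215 and 12997 bp against 10459 and 11751 bp, and ranked higher in TBX5 KO (87.6 and 88.8) than in control (79.5 and 73.3).

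**Figure D5:**
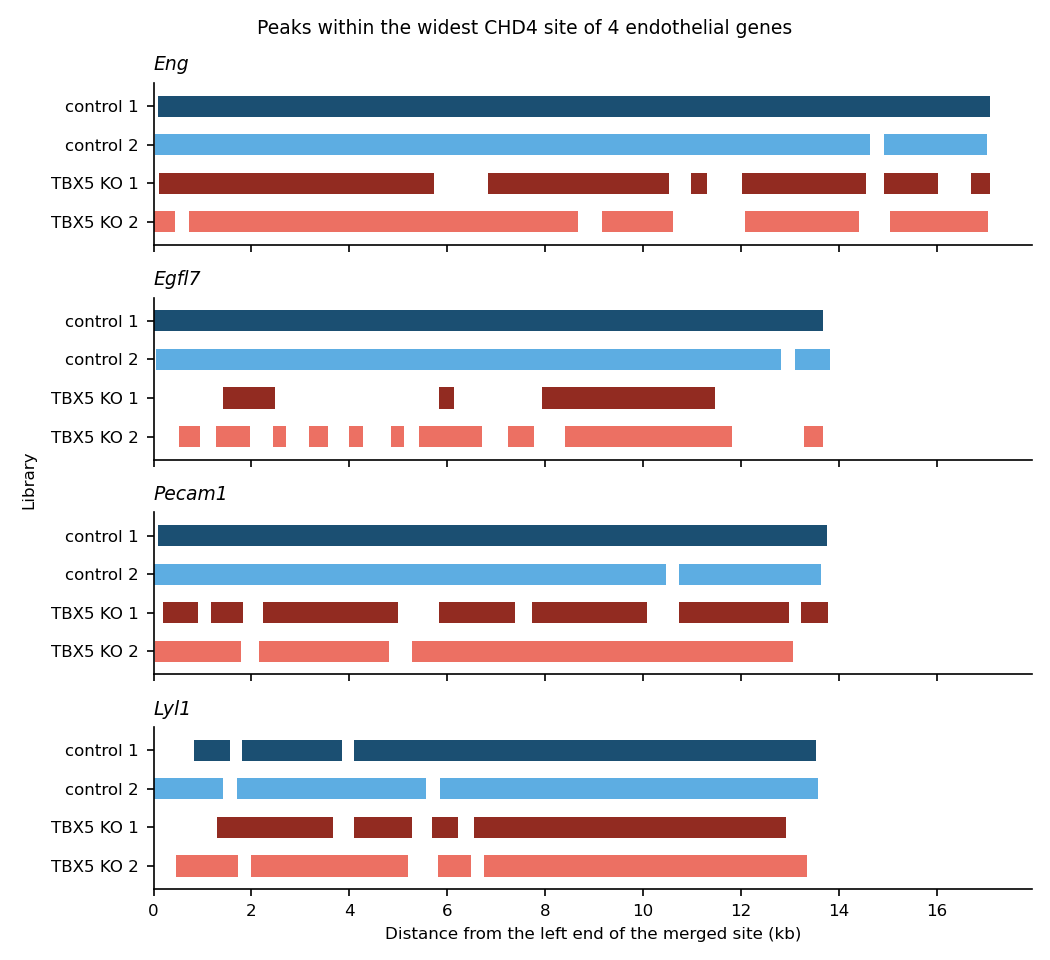
Peaks of each library (rows, coloured bars) within the widest CHD4 site of Eng, Egfl7, Pecam1 and Lyl1, drawn to scale by distance in kb from the left end of the merged site (x axis). Control bars are nearly unbroken in the Eng, Egfl7 and Pecam1 sites, and the TBX5 KO bars are split into 3 to 10 peaks, with the least covered length in Egfl7.

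The kept endothelial sites also ranked somewhat lower. Their median rank was at the 51.7 and 52.5 percentile in control and at the 48.1 and 46.1 percentile in TBX5 KO, a difference of −5.02 points (exact permutation p = 0.333, n = 2). It was negative in every setting that kept the titled groups, from −1.64 points with sites joined by summit to −8.27 points with sites given to the nearest gene, so its size depends on how sites are drawn. With sites joined by summit and with lists of equal length (−2.08 points) the libraries of the groups overlapped (exact permutation p = 0.667). The median of the differences taken site by site was −2.66 points. Atrial cardiomyocyte sites differed by −18.2 points and smooth muscle and mural sites by −5.53, whereas fibroblast sites differed by 4.27 and the further endothelial genes by 2.31 points. Of the 200 sites, 70 (35.0%) ranked lower in both TBX5 KO libraries, against 20.6% over all genes and 21.3% for sites of the same control rank. Another 41 (20.5%) ranked higher, against 25.7%. The further endothelial genes thus differed in the opposite direction, by less than the members did (exact permutation p = 0.667, n = 2).

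Some genes ranked lower at nearly all of their kept sites, and others held sites that differed both ways. At Flt1 6 of 7 kept sites ranked lower in both TBX5 KO libraries, and at Nos3 5 of 6. At Prox1 4 of 4 ranked lower on the group means, but only 2 of them in both TBX5 KO libraries. The greatest difference was at a site in the flank of Kdr, chr5:75922008-75923609, which ranked at 67.8 and 54.2 in control and at 2.80 and 26.4 in TBX5 KO, with widths of 1119 and 1245 bp against 363 and 528 bp. A Prox1 site at chr1:190143206-190144945 ranked at 46.8 and 65.3 against 18 and 3.31, and its width was 1625 and 1659 bp against 242 and 348 bp. Vwf held both a site among those that ranked lower and the site with the greatest opposite difference. The former, chr6:125596303-125598368, ranked at 72.8 and 55.9 in control and at 13.8 and 33.2 in TBX5 KO. The latter, chr6:125661542-125661969, ranked at 0.272 and 3.76 in control and at 38.7 and 28.4 in TBX5 KO. Sites that start at the very top or bottom of the control ranks can move only one way.

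The further gene lists bound these values. The 34 other endothelial genes gave 47 control-only sites of 222 (21.2%), and the 20 VEGF, angiopoietin and Notch pathway genes gave 31 of 145 (21.4%), against 24.3% over all genes. Sites called in all 4 made up 59.5% and 57.9% of theirs. Without Prox1 and Nrp1 the endothelial control-only share was 18.9%, and with only the sites of no other gene it was 18.5%.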

How the data were processed

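The data were the peak lists of 4 CHD4 ChIP libraries. No list of the 4 inputs was used. Per the submitters' processing notes the tools were MACS2 and DiffBind, without versions, on build mm10. The aligner is not given in the sources used here. For each peak the authors deposited a score, a ratio (fold over local background), −log10 p and −log10 q. The other deposited column is the summit position. In the deposited lists the lowest −log10 q was 1.30. These values were used only to rank or filter peaks within a list.

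Peaks were merged into sites at 1 bp of overlap and given to RefSeq genes (GRCm38.p6, without strand or exons) plus 10 kb, with Python 3.11.15, pandas 2.3.3, numpy 2.4.6 and scipy 1.17.1. The width of a site is the length its peaks cover. Shares have 95% Wilson intervals, and values per library an exact permutation test over 2 against 2 libraries. The counting script was tested on simulated data. All 36 genes were named with counts. Full values were given for 4 with most control-only sites (5 genes tied at 4 behind Flt1, taken in alphabetical order), the 4 with most sites in all 4 and no control-only site, those with TBX5 KO-only sites and the 4 with the widest control peak. Other sites were named after their values were seen. The members, the lists and the tests were chosen with earlier results of these data known. The alternatives comprised stricter −log10 q minimums (3 and 5), equal list lengths, 50% overlap, summits within 250 bp, other gene assignments, leaving out genes or libraries, exchanged groups, and pairing. Those on control rank and place together, control width, the control rank of kept sites, control length and Ryr2 were chosen after seeing the data.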

Additional observations from a re-analysis of the deposited data

How the results depend on the processing

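The control-only share of endothelial sites (18.3%) was 9.65% with lists of equal length, 23.6% at the rate of all genes for its control rank, 24.2% for rank and place together, and 1.43% with the groups exchanged. Leaving out 1 library at a time gave 26.8 to 33.1%, since a looser pattern then counts as control-only. With the groups exchanged, the log2 differences in endothelial peak share (0.17), in the ratio to cardiomyocyte peaks (−0.56) and in width (0.69) and the rank difference (5.02 points) turned round by construction. The replicate block, which pairs same-numbered libraries, gave 42.1% of a control library's endothelial sites not called in its TBX5 KO partner, against 46.9% over all genes, and an exact paired p of 0.5, the smallest possible, for each of the 4 library values. The rank difference of replicate 1 minus replicate 2 in control did not follow that in TBX5 KO (correlation −0.0141 over 38043 sites). Ranks within a list cannot show a shared effect on depth, width or peak number. Whether same-numbered libraries shared a batch is therefore unknown. In the other settings run, the 4 library values kept their direction, with the rank difference between −1.64 and −8.27 points. Of the values for single genes, lists and counts, 254 stayed within their interval or 1.5 times the value, and the others moved. With 2 libraries a group the exact permutation test used here cannot give p below 0.333, depth is unknown, and sites below the calling threshold are not seen.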
